A study of Mus musculus with 20 samples.

Results

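Sycn, 2310079G19Rik and Slc37a2 were followed in the colon of 20 mice, as 3 of the 32991 genes in the deposited data. They were chosen by the difference between the Model and Control groups, in which they were far lower in Model mice, so that difference is described here without a test. The level of a gene is the sum of the FPKM values (fragments scaled to transcript length and to library depth) of its Ensembl transcripts in GRCm38. All 3 genes were above 0 in all 20 mice, and all 3 passed the filter on low values (0.5 FPKM or more in 5 or more of 10 mice) in every comparison.

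RNA-seq had been carried out on colon from male C57BL/6 mice, with 1 library per mouse and 5 mice in each group. The Control group drank and was gavaged with water only. The PZH group received Pien Tze Huang (PZH), a herbal and animal-derived formula of Chinese medicine, by gavage at 250 mg/kg/d for 91 days. The Model group received azoxymethane (AOM), a carcinogen, at 12.5 mg/kg, and cycles of 2% dextran sodium sulfate (DSS), which injures the colon lining, for 5 days followed by 2 weeks of water. The Model + PZH group received AOM, DSS and PZH, and Control and Model mice were gavaged with double distilled water. The study describes tumours mainly near the anal end of the colon in both AOM/DSS groups. The samples are whole tissue, so fewer cells of a type and less RNA per cell cannot be told apart.

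Syncollin (Sycn) is a small secretory protein best known from the zymogen granules of pancreatic acinar cells, where it takes part in granule exocytosis. Slc37a2 encodes a sugar-phosphate exchanger of the endoplasmic reticulum membrane, in the family of the glucose-6-phosphate transporter Slc37a4, and is known from macrophages and osteoclasts. 2310079G19Rik is a protein-coding gene that carries only a RIKEN clone name. The surface epithelium of the normal colon absorbs salt and water and secretes mucus and small proteins, and its mature cells lose many of their characteristic transcripts in chronic injury and in tumours.

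Sycn lies at chr7:28540885-28542209 on the plus strand of GRCm38 and has 1 annotated transcript. 2310079G19Rik lies at chr16:88626786-88627666 on the minus strand and is a single exon of 881 bases between the keratin-associated protein genes Krtap24-1 and Krtap26-1. Slc37a2 lies at chr9:37227585-37255738 on the minus strand and has 3 annotated transcripts. The promoters of the 3 genes are shown because all 3 were lower in Model than in Control mice. That shared direction was the reason for their choice. They are RefSeq sequences of GRCm38.p6, 250 bases before and 50 bases after the annotated start, read 5′ to 3′ along the gene. The windows are chr7:28540635-28540934 (plus strand) for Sycn, chr16:88627617-88627916 (minus strand) for 2310079G19Rik and chr9:37255689-37255988 (minus strand) for Slc37a2. Capitals mark matches to the motifs that were searched on both strands.
Sycn: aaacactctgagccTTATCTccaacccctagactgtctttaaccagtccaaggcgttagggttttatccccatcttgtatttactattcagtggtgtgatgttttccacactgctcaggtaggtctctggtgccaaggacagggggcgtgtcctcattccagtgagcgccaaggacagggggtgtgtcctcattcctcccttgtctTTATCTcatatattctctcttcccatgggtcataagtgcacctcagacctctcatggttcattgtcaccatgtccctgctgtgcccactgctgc
2310079G19Rik: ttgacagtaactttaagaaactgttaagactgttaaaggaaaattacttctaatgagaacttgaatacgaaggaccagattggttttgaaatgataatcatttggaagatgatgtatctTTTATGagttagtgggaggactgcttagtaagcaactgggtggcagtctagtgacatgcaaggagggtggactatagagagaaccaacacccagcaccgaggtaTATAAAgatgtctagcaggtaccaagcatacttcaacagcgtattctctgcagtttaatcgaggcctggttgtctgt
Slc37a2: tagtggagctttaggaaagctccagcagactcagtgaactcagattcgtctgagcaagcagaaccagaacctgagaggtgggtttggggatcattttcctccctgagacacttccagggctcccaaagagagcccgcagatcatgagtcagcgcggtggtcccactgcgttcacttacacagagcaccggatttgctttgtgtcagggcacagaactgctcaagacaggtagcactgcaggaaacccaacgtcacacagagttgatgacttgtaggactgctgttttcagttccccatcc

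The motifs were TATAAA (a core promoter element), TTTATG (bound by Cdx factors), AGATAA (bound by GATA factors), AAAGTCC (bound by Hnf4 factors) and CTTTGAT (bound by Tcf/Lef factors). The Sycn promoter held AGATAA on the opposite strand, read as TTATCT, at -236 and at -44 from the start. The 2310079G19Rik promoter held TATAAA at -27 and TTTATG at -131. The Slc37a2 window held none of these letter strings, and no marked match overlapped another. Of 32851 mouse promoters of the same length, 13.6% held TATAAA, 11.9% TTTATG, 11.2% AGATAA, 4.21% AAAGTCC and 3.73% CTTTGAT. The GC content was 50.3% for Sycn, 40.3% for 2310079G19Rik and 52.7% for Slc37a2, and the median of all promoters was 52.7%.

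Depth, estimated from the smallest steps of the values, was 15.3 to 19.4 M fragments per mouse. The tissue label reads colon, while the extraction text in the labels names another tissue, the abdominal aorta. Summed over 20 genes of differentiated colonocytes, Control mice had 5268 to 6852 FPKM, PZH mice 4412 to 5125, Model mice 1161 to 2815 and Model + PZH mice 1708 to 4520.3. Control mice 17 and 50 stood apart from the other Control mice by genes of squamous epithelium, which lines the anal canal and not the colon. Krt13, a keratin of such epithelium, was at 125 and 126 FPKM in these mice, and at 0.256 to 0.527 in Control mice 37, 41 and 48. The summed level of 8 squamous genes was 411 FPKM in mouse 17 and 321 in mouse 50, against 4.33 to 6.18 in the other Control mice and 3.67 to 5.80 in PZH mice. It was 27.3 to 51.8 FPKM in Model and 12.5 to 76.5 in Model + PZH mice, so all AOM/DSS mice lay above all PZH mice. The main results that rest on the Control group are given with and without Control mice 17 and 50.

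Sycn was one of the most abundant transcripts of the normal colon, ranking between 14 and 36 among all genes by FPKM in Control mice. Its level was 1413 FPKM in Control mouse 17, 2156 in mouse 37, 1023 in mouse 41, 1134 in mouse 48 and 1528 in mouse 50. PZH mice had 1279.6 FPKM (mouse 8), 895 (mouse 14), 931 (mouse 27), 378 (mouse 46) and 622 (mouse 53). Only mouse 8 of the PZH group reached the range of the Control group. In the Model group the level was 137 FPKM in mouse 23, 422 in mouse 30, 155 in mouse 33, 119.8 in mouse 44 and 99.0 in mouse 52. In the Model + PZH group it was 151 FPKM in mouse 2, 525.6 in mouse 13, 92.3 in mouse 15, 226 in mouse 35 and 201 in mouse 36. All 10 mice that had received AOM/DSS lay below the lowest Control mouse, and Model mouse 30 and Model + PZH mouse 13 stood above the rest of their groups. The group means were 1451 ± 444 FPKM (SD, n = 5) in Control, 821 ± 341 in PZH, 186 ± 133 in Model and 239 ± 168 in Model + PZH mice (SD, n = 5 each).

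2310079G19Rik was at a lower level, and had the largest ratio of the 3 between Control and Model mice. Control mice had 88.0 FPKM (mouse 17), 36.7 (mouse 37), 27.8 (mouse 41), 25.5 (mouse 48) and 67.6 (mouse 50). The values in PZH mice were 29.3 FPKM (mouse 8), 11.9 (mouse 14), 20.8 (mouse 27), 9.90 (mouse 46) and 7.66 (mouse 53). The highest of them, mouse 8, was again the one PZH mouse within the Control range. Model mice had 4.08 FPKM (mouse 23), 1.34 (mouse 30), 2.41 (mouse 33), 0.674 (mouse 44) and 1.29 (mouse 52). In Model + PZH mice the level was 1.81 FPKM (mouse 2), 4.05 (mouse 13), 0.848 (mouse 15), 4.22 (mouse 35) and 4.03 (mouse 36). No mouse that had received AOM/DSS reached the lowest mouse without it. In both AOM/DSS groups these levels correspond to 10 to 65 estimated fragments per mouse, so that counting error is part of the spread. For Model mouse 44, the 95% Poisson interval of the 10 fragments is 4.80 to 18.4 and covers counting error only. The means were 49.1 ± 27.5 FPKM (SD, n = 5) in Control, 15.9 ± 9.0 in PZH, 1.96 ± 1.34 in Model and 2.99 ± 1.56 in Model + PZH mice (SD, n = 5 each).

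Slc37a2 had a similar level in both groups without AOM/DSS. It was at 38.8 FPKM in Control mouse 17, 99.1 in mouse 37, 128 in mouse 41, 153 in mouse 48 and 32.7 in mouse 50. In PZH mice it was at 168 FPKM (mouse 8), 81.4 (mouse 14), 97.2 (mouse 27), 88.1 (mouse 46) and 113 (mouse 53). All PZH mice lay above Control mice 17 and 50 and, apart from mouse 8, below the highest of the other Control mice. In Model mice the level was 2.87 FPKM (mouse 23), 19.3 (mouse 30), 16.0 (mouse 33), 3.90 (mouse 44) and 9.36 (mouse 52). Model + PZH mice had 14.4 FPKM (mouse 2), 15.6 (mouse 13), 5.77 (mouse 15), 12.6 (mouse 35) and 27.3 (mouse 36). The highest AOM/DSS mouse, Model + PZH mouse 36, lay just below Control mouse 50 and at less than the lowest PZH mouse. The means were 90.3 ± 53.4 FPKM (SD, n = 5) in Control, 109 ± 34.7 in PZH, 10.3 ± 7.25 in Model and 15.1 ± 7.79 in Model + PZH mice (SD, n = 5 each).

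**Figure D1:**
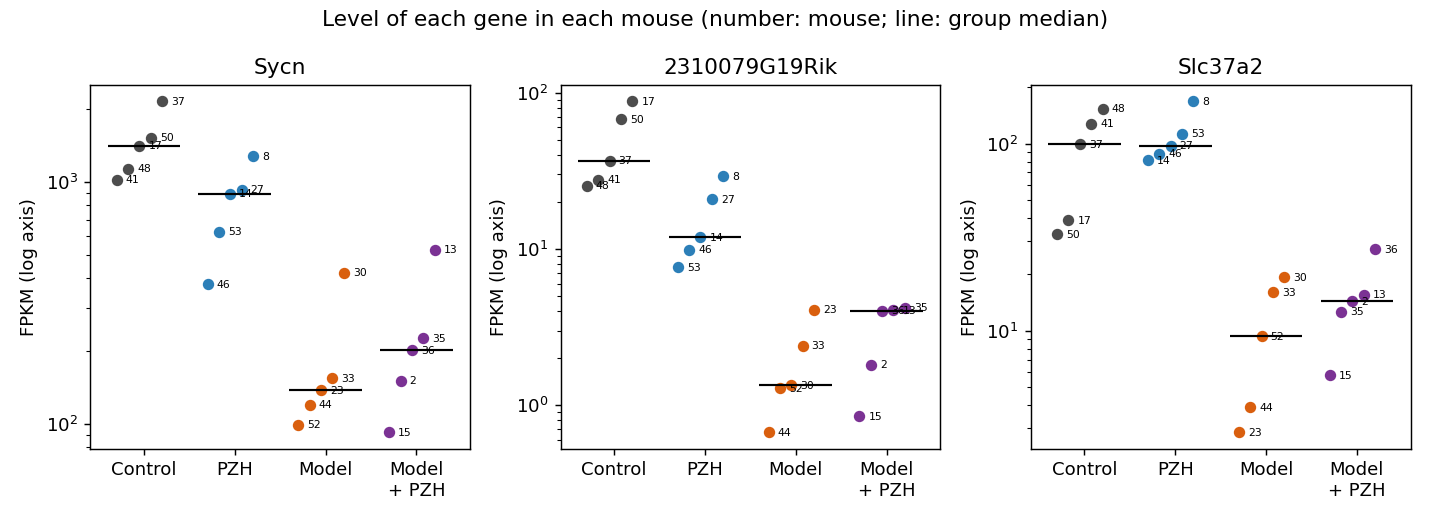
FPKM of Sycn, 2310079G19Rik and Slc37a2 in each of the 20 mice on log axes, with 1 point per mouse, the mouse number beside it and a line at the median of each group. All AOM/DSS mice (Model and Model + PZH) lie below all Control mice for the 3 genes, and the Model and Model + PZH groups overlap.

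By group mean, Sycn and 2310079G19Rik were ordered Control, PZH, Model + PZH and Model, and Slc37a2 was ordered PZH, Control, Model + PZH and Model. The neighbours Model + PZH and Model overlapped for each gene, as did PZH and Control. PZH and Model + PZH, the neighbours in the middle of the order for Sycn, overlapped through PZH mouse 46 and Model + PZH mouse 13. They did not overlap for 2310079G19Rik, nor did Control and Model + PZH for Slc37a2.

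The difference between Model and Control mice chose the genes. The Control mean was 7.78 times the Model mean for Sycn, 25.1 times for 2310079G19Rik and 8.78 times for Slc37a2. On the log2(FPKM + 1) scale, on which the change of low genes is understated, the difference was -3.12 for Sycn, -4.02 for 2310079G19Rik and -3.05 for Slc37a2. These ranked 3, 2 and 5 from the lowest among 15812 genes tested. All 3 genes had every Model mouse below every Control mouse, as did 5.43% of the genes tested. Without Control mice 17 and 50 the differences were -3.07, -3.48 and -3.76 in the same order of genes. The Control mean of 2310079G19Rik was then 30.01 ± 5.94 FPKM (SD, n = 3) and 15.3 times the Model mean. That of Slc37a2 was 127 ± 27.1 FPKM (SD, n = 3) and 12.3 times the Model mean, and that of Sycn 1438 ± 624.6 FPKM (SD, n = 3) and 7.71 times the Model mean.

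Whether AOM/DSS was accompanied by the same difference in other animals was tested between Model + PZH and PZH mice, whose values did not enter the Model against Control difference. The genes and this test were chosen with earlier results of these data known, so full independence of the choice is not assured. Slc37a2 was lower in Model + PZH mice, at 13.8% of the PZH mean. The log2 difference was -2.87 (standard error 0.33, limma with Benjamini-Hochberg adjustment over all genes, adjusted p = 0.00733), rank 5 from the lowest among 15636 genes. 2310079G19Rik was also lower, at 18.8% of the PZH mean. Its log2 difference was -2.04 (standard error 0.40, limma adjusted p = 0.0344), rank 15. Sycn was at 29.1% of the PZH mean with a log2 difference of -1.91 (standard error 0.44), rank 18, and did not pass the threshold of 0.05 (limma adjusted p = 0.0525). Thus 2 of the 3 genes were called lower, against 0.678% of all genes tested. Every Model + PZH mouse lay below every PZH mouse for the same 2 genes, as for 2.37% of all genes.

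The call for 2310079G19Rik was lost (adjusted p up to 0.0797) when any 1 of the 5 PZH mice or Model + PZH mouse 2 or 15 was left out. Sycn passed without Model + PZH mouse 13, with a log2 difference of -2.25 (limma adjusted p = 0.0248), while Slc37a2 passed whichever mouse was left out. In exact two-sided permutation tests of the 5 against 5 mice, p was 0.00794 for Slc37a2 and for 2310079G19Rik, the smallest these groups allow, and 0.0159 for Sycn.

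**Figure D2:**
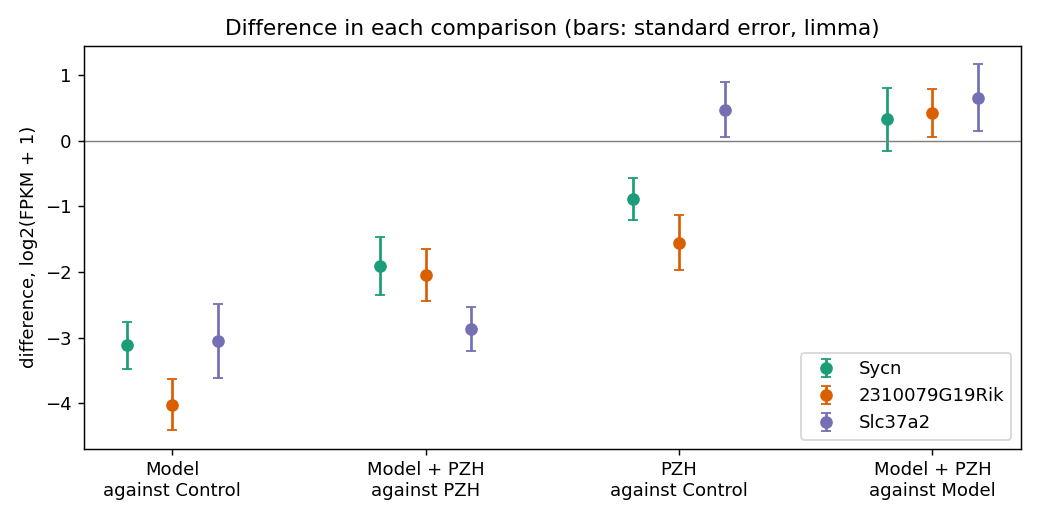
Differences in mean log2(FPKM + 1) of the 3 genes in the 4 comparisons, with bars of 1 standard error from limma (n = 5 mice per group). The Model against Control values chose the genes, and only the Model + PZH against PZH values were tested for them.

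PZH mice without AOM/DSS are the same mice as in the test above, and Control mice served in the choice, so PZH against Control is given as values. The log2 difference was -0.89 (standard error 0.32) for Sycn, -1.55 (standard error 0.42) for 2310079G19Rik and 0.47 (standard error 0.42) for Slc37a2. The PZH mean was 56.6% of the Control mean for Sycn, 32.4% for 2310079G19Rik and 121% for Slc37a2. Without Control mice 17 and 50, these became 57.1%, 53.1% and 86.4%, and the log2 differences -0.84, -1.01 and -0.24. The sign of the Slc37a2 difference thus rested on Control mice 17 and 50.

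Model + PZH means lay slightly above Model means, and the mice were uneven. Against the Model group, which also served in the choice, Model + PZH mice differed by 0.33 (standard error 0.48) for Sycn, 0.43 (standard error 0.36) for 2310079G19Rik and 0.66 (standard error 0.51) for Slc37a2 on the log2 scale. Model + PZH mouse 13 had 36.2% of the Control mean of Sycn, mouse 35 15.6%, mouse 36 13.9%, mouse 2 10.4% and mouse 15 6.36%. For comparison, Model mouse 30 was at 29.1% and the other Model mice at 6.82 to 10.6%. Against Control mice 37, 41 and 48 alone, Model + PZH mice were at 6.42 to 36.6% and Model mice at 6.88 to 29.3% for Sycn. Thus 1 mouse of each AOM/DSS group was well above its fellows for Sycn, with and without PZH.

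For Slc37a2 the highest Model + PZH mouse was mouse 36, at 30.2% of the Control mean, and the others were at 6.39 to 17.2%. Model mice were at 3.18 to 21.4% for this gene. Against Control mice 37, 41 and 48 alone, mouse 36 was at 21.6%, the other Model + PZH mice at 4.55 to 12.3% and Model mice at 2.27 to 15.2%. For 2310079G19Rik, Model + PZH mice 13, 35 and 36 were at 8.20 to 8.60% and mice 2 and 15 at 3.69 and 1.73%. Model mouse 23, without PZH, was at 8.30% and the other Model mice at 1.37 to 4.90%. Control mice 17 and 50 had the highest levels of this gene, and against the other 3 Control mice alone these percentages were higher. Model + PZH mice 13, 35 and 36 were then at 13.4 to 14.1%, mice 2 and 15 at 6.04 and 2.82%, Model mouse 23 at 13.6% and the other Model mice at 2.24 to 8.02%. Model + PZH mouse 15 was the lowest of its group for all 3 genes, whereas the highest was mouse 13, 35 or 36 depending on the gene.

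**Figure D3:**
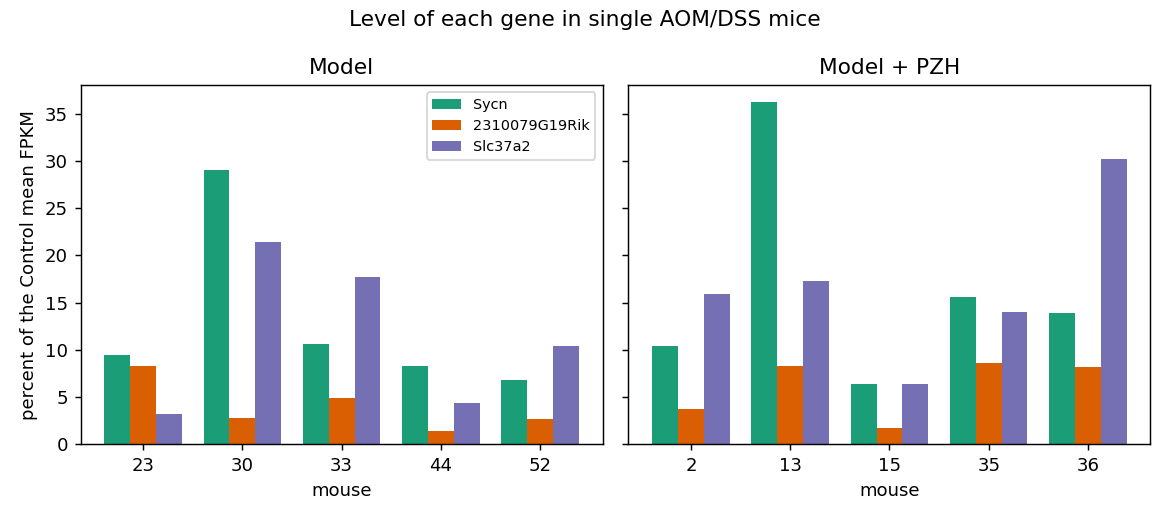
Level of the 3 genes in each Model and Model + PZH mouse as a percentage of the mean FPKM of the 5 Control mice, 1 bar per gene and mouse. The highest bars are Sycn in Model + PZH mouse 13 (36.2%) and Slc37a2 in Model + PZH mouse 36 (30.2%), and the bars of 2310079G19Rik reach 8.60%, which would be 14.1% of the mean of Control mice 37, 41 and 48.

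The 3 genes did not vary as 1 unit within groups. Over the 20 mice, with group means removed, Pearson's r of log2(FPKM + 1) was 0.48 between Sycn and 2310079G19Rik, 0.36 between Sycn and Slc37a2 and -0.13 between 2310079G19Rik and Slc37a2. These are descriptions over mice whose values share library and tissue piece. Without Control mice 17 and 50 (18 mice) they were 0.55, 0.48 and 0.25. Mice 17 and 50 had the highest 2310079G19Rik and the lowest Slc37a2 of the Control group, together with the squamous keratins. The part of squamous tissue in these values was not tested.

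**Figure D4:**
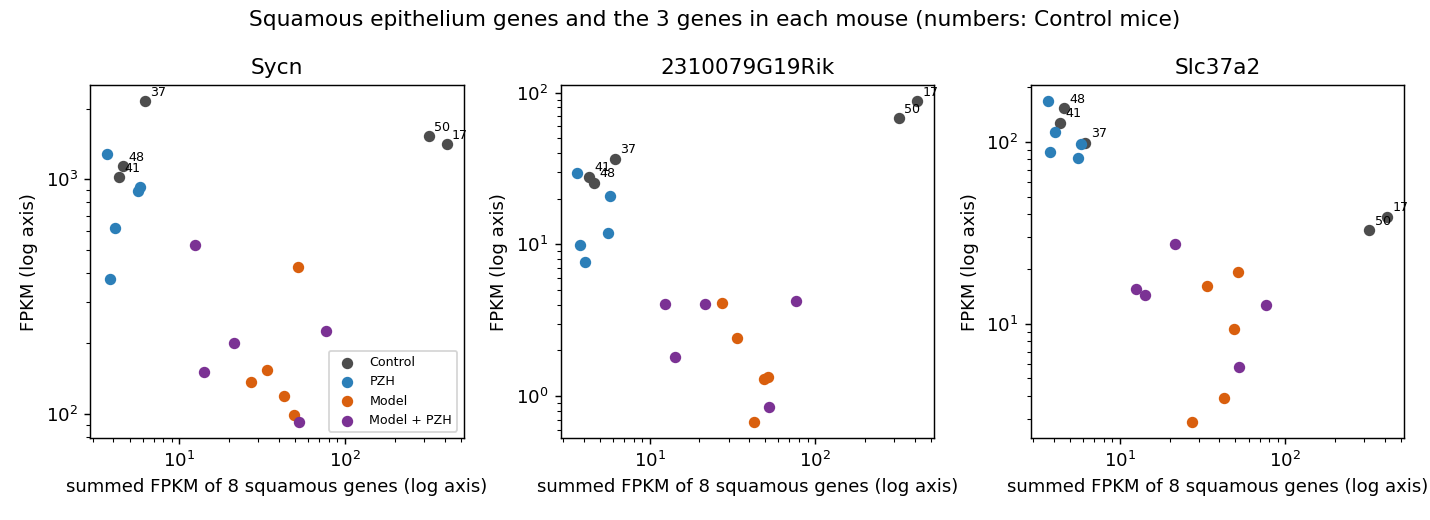
FPKM of each gene against the summed FPKM of 8 squamous epithelium genes in each mouse, both on log axes, coloured by group, with the numbers of Control mice. Control mice 17 and 50 lie far to the right (411 and 321 FPKM), high for 2310079G19Rik and low for Slc37a2, and in the middle of the Control group for Sycn.

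Sycn and, to a lesser degree, 2310079G19Rik were positively correlated with genes of smooth muscle, the muscle layer of the gut wall, within groups. The median r of Sycn with 7 such genes was 0.62, and 0.66 without Control mice 17 and 50, against -0.01 over all 14139 genes compared. For 2310079G19Rik the median was 0.39, and 0.33 without these mice. For Slc37a2 it was -0.11, and 0.17 without them. The summed level of the 8 smooth muscle genes was highest in PZH mouse 8 (2475 FPKM), Model mouse 30 (1783) and Model + PZH mouse 13 (2359), which were also the highest of their groups for Sycn. In Control mice it was highest in mouse 50 (5279 FPKM), followed by mouse 17 (2882) and then mouse 37 (2794), which had the highest Sycn. The lowest PZH mouse was the same for Sycn and smooth muscle (mouse 46, 1076 FPKM), whereas the lowest for smooth muscle was mouse 44 in the Model group (1020) and mouse 35 in the Model + PZH group (901), and the lowest for Sycn were mice 52 and 15. The median r with 5 Hox genes of the distal hindgut, which mark position along the gut, was 0.52 for Sycn, 0.46 for 2310079G19Rik and -0.08 for Slc37a2. Their summed level was highest in PZH mouse 8 (269 FPKM) and Model + PZH mouse 13 (208), and lowest among Model + PZH mice in mouse 15 (84.2), the lowest for all 3 genes. Model mice 30 (200.6 FPKM) and 44 (200.4) were level, although they were the highest and the second lowest of their group for Sycn. In Control mice the highest was mouse 50 (285) and not mouse 37 (228), and in PZH mice the lowest was mouse 53 (179) and not mouse 46 (202). The part of tissue position and depth in these levels was not tested.

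Smooth muscle genes were also lower in Model than in Control mice, 7 of 7 tested, with a median log2 difference of -1.20 against 0.09 over all genes. Of all genes, 7.23% were called lower. Without Control mice 17 and 50, 4 of the 7 were called and the median was -0.97 (limma, 7 lower at an unadjusted p under 0.05, and adjusted p of 0.0502 to 0.0696 for the other 3). Of all genes, 858 of 15381 were then called lower. Between Model + PZH and PZH mice, 0 of 7 were called (limma, 1 lower at an unadjusted p under 0.05), with a median of -0.37. Hox genes of the distal hindgut had 1 of 5 lower in Model mice, Hoxb13 (-0.60, limma adjusted p = 0.00157), and 0 of 5 called between Model + PZH and PZH mice (limma, 1 lower at an unadjusted p under 0.05).

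The other genes most like each member within groups were mostly of different function. For Sycn they were Wfdc2, which encodes a secreted protein of the whey acidic protein type (r 0.89), Dtx1, a Notch regulator (0.88), Il22ra1, a subunit of the interleukin-22 receptor (0.81), Ctss, the protease cathepsin S (0.81), and Plbd1 (0.80), each over 20 mice. Wfdc2 was at 355 ± 65.8 FPKM (SD, n = 5) in Control, 259 ± 48.1 in PZH, 95.7 ± 41.1 in Model and 97.9 ± 45.2 in Model + PZH mice. It was lower in Model + PZH than in PZH mice (log2 difference -1.52, limma adjusted p = 0.0410), while the other 4 were not called there. The 5 genes given for each member have the highest r among 14139 genes, so their r is high in part by choice. The lowest r among these genes was of similar size, at -0.82 for Sycn, -0.81 for 2310079G19Rik and -0.86 for Slc37a2.

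For 2310079G19Rik the most similar genes were the homeobox gene Cphx2 (r 0.82), the chitinase Chit1 (0.81), C1rl (0.80), Uap1l1 (0.79) and Ms4a10 (0.79). None of these 5 was called between Model + PZH and PZH mice (limma, 0 at an unadjusted p under 0.05). For Slc37a2 they were Gm4956 (r 0.87), Ttc38 (0.81), the cytochromes P450 Cyp2d26 (0.78) and Cyp4f16 (0.77) and Pck1, the gluconeogenic enzyme phosphoenolpyruvate carboxykinase (0.77). Of these, Cyp4f16 (-0.71, limma adjusted p = 0.0268) and Ttc38 (-0.65, limma adjusted p = 0.0283) were lower in Model + PZH than in PZH mice. Pck1 was at 49.2 ± 21.3 FPKM (SD, n = 5) in Control, 46.7 ± 6.11 in PZH, 17.6 ± 6.84 in Model and 26.1 ± 13.6 in Model + PZH mice, and its log2 difference of -0.96 between Model + PZH and PZH mice did not pass (limma adjusted p = 0.116). Over the 18 mice other than Control mice 17 and 50, r of these 15 genes with their member was 0.64 to 0.91. The 15 genes were chosen by r over mice that include these 18, so this is no independent check.

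Sycn is a zymogen granule gene, and other genes of the exocrine pancreas were therefore examined. Of 22 listed genes, 17 were in the data, and the main acinar enzymes and granule genes Prss2, Ctrb1, Pnlip, Cel, Cela2a and Cuzd1 had means below 0.5 FPKM in all groups. Of 8 genes that passed the filter, 5 were higher and 0 lower in Model than in Control mice (limma, 1 lower at an unadjusted p under 0.05, median log2 difference 1.22), and 16.4% of all genes were called higher there. The gene lower at an unadjusted p was the kallikrein Klk1, the most abundant of the list (log2 difference -0.85, limma adjusted p = 0.0631). Without Control mice 17 and 50, 4 were higher and 1, Klk1 (-1.37, limma adjusted p = 1.90e-04), was lower like Sycn. Of all genes, 1881 of 15381 were then called higher and 858 lower.

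The lipase-related Pnliprp1 was at 0.857 ± 0.213 FPKM (SD, n = 5) in Control and 106 ± 53.3 (SD, n = 5) in Model mice. Pnliprp2, a lipase of the same family, was at 1.19 ± 0.380 FPKM (SD, n = 5) in Control and 101 ± 56.0 (SD, n = 5) in Model mice. Rnase1, a secreted ribonuclease, was at 0.657 ± 0.440 and 13.1 ± 2.07 FPKM (SD, n = 5 each), and Clps, the lipase cofactor colipase, at 13.4 ± 1.45 and 32.7 ± 10.2 FPKM (SD, n = 5 each). Each of these genes lay in all Model mice above all Control mice, the reverse of Sycn. The share of all genes without overlap in this direction was not computed, and 16.4% of all genes were called higher.

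Model + PZH mice were divided for these enzymes. Pnliprp1 was at 0.913 FPKM in mouse 13, 3.47 in mouse 2, 8.41 in mouse 36, 33.1 in mouse 15 and 103 in mouse 35. Mouse 13, with the highest Sycn of the group, had a Pnliprp1 level within the Control range of 0.492 to 1.06 FPKM. Mouse 35, the next highest for Sycn (226 FPKM), had the highest Pnliprp1. Against PZH mice, Pnliprp1 differed by 2.99 (standard error 0.90) and was not called (limma adjusted p = 0.101). Cela1, an elastase, was the one exocrine gene called there. In the direction of Sycn, it was lower in Model + PZH mice (108 ± 32.0 FPKM, SD, n = 5) than in PZH mice (218 ± 39.6, SD, n = 5), by 1.04 on the log2 scale (limma adjusted p = 0.0446). Cela1 was not called without the filter on low values or with all 20 mice in one model.

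**Figure D5:**
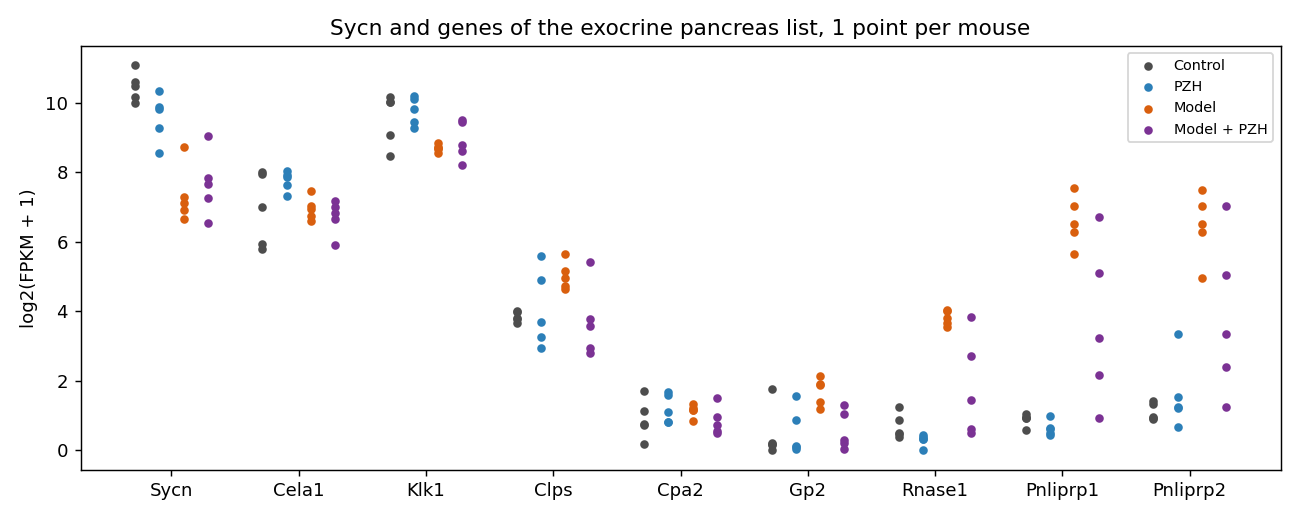
log2(FPKM + 1) of Sycn and of the 8 exocrine pancreas genes that passed the filter between Model and Control mice, 1 point per mouse and 1 colour per group. Sycn is lower in all Model than in all Control mice, whereas Pnliprp1, Pnliprp2, Rnase1 and Clps are higher, and Model + PZH mice spread between both levels for Pnliprp1, Pnliprp2 and Rnase1.

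Genes of secretory granule exocytosis, such as Rab27a, Vamp8 and Stxbp2, had 1 of 14 higher and 0 lower in Model than in Control mice, and 0 of 14 called between Model + PZH and PZH mice (limma, 1 lower and 2 higher at an unadjusted p under 0.05). Their summed level was 228 to 258 FPKM in Control and 234 to 311 in Model mice.

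No family member of Slc37a2 passed the test in either AOM/DSS comparison. Of the exchangers Slc37a1, Slc37a3 and Slc37a4 and the phosphatase G6pc3, 0 of 4 were called in Model against Control or in Model + PZH against PZH mice (limma, 0 at an unadjusted p under 0.05 in both). Without Control mice 17 and 50, 0 of 4 were called in Model against Control mice and G6pc3 was lower at an unadjusted p (log2 difference -0.49, limma unadjusted p = 0.0356, adjusted p = 0.125). Slc37a4, the glucose-6-phosphate transporter proper, was at 12.2 ± 0.94 FPKM (SD, n = 5) in PZH and 10.6 ± 1.63 (SD, n = 5) in Model + PZH mice. Slc37a1 was at 26.3 ± 18.1 FPKM (SD, n = 5) and 16.1 ± 10.6 (SD, n = 5) in these groups. The phosphatases G6pc and G6pc2 had means below 0.05 FPKM in all groups.

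Both annotated coding transcripts of Slc37a2 were measured. Slc37a2-202 (2945 bases, 19 exons) made up 79.5% ± 3.38 (SD, n = 5) of the gene's FPKM in PZH mice and 73.6% ± 6.41 (SD, n = 5) in Model + PZH mice. The difference of -5.86 percentage points did not pass an exact two-sided permutation test (p = 0.103). Slc37a2-202 fell by 2.94 on the log2 scale between these groups and Slc37a2-201 (5943 bases, 18 exons) by 2.38 (limma over single transcripts, adjusted p = 0.0174 for both). The retained-intron transcript Slc37a2-203 had means of 1.07 and 0.377 FPKM.

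Macrophage and osteoclast genes, the cells for which Slc37a2 is known, went the other way. Of 13 tested, 7 were higher and 0 lower in Model than in Control mice, where 16.4% of all genes were called higher. Without Control mice 17 and 50, 6 were higher, and 1881 of 15381 genes were called higher. In turn, 2 were higher and 0 lower in Model + PZH than in PZH mice, where 1.74% of all genes were called higher. The macrophage glycoprotein Cd68 was at 8.02 FPKM in PZH and 16.6 FPKM in Model + PZH mice (log2 difference 0.98, limma adjusted p = 0.0126). The summed macrophage level was 297 to 557 FPKM in PZH and 464 to 912 in Model + PZH mice, and the median r of these genes with Slc37a2 within groups was -0.02.

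Genes of differentiated colonocytes shared the direction of the 3 genes. Between Model and Control mice 14 of 20 were lower and 0 higher (12 without Control mice 17 and 50), with a median log2 difference of -1.12. Of all genes 7.23% were called lower there, and 858 of 15381 without these mice. Slc26a3, the chloride exchanger of the surface epithelium, had a mean of 400.07 FPKM in Control, 301 in PZH, 79.6 in Model and 200 in Model + PZH mice. Between Model + PZH and PZH mice 0 of 20 were called (limma, 12 lower at an unadjusted p under 0.05, lowest adjusted p 0.0555), with a median of -0.68. Slc37a2 and 2310079G19Rik were called (limma adjusted p = 0.00733 and 0.0344), the latter not under every alternative. The largest difference in the list there was that of Slc20a1, a phosphate transporter (-1.52, limma adjusted p = 0.0646), which is smaller than that of any of the 3 genes. Between Model and Control mice, however, the lowest difference in the list was -4.25, beyond that of each of the 3 genes. The median r with colonocyte genes within groups was 0.30 for Sycn, 0.07 for 2310079G19Rik and 0.35 for Slc37a2. With macrophage, lymphocyte and neutrophil genes, lists with genes called higher in Model mice, it was 0.31, 0.39 and -0.31 for Sycn. For 2310079G19Rik it was 0.31, 0.07 and 0.20, and for Slc37a2 -0.02, 0.34 and -0.32. Without Control mice 17 and 50, the colonocyte median was 0.32 for Sycn, 0.10 for 2310079G19Rik and 0.52 for Slc37a2. The macrophage, lymphocyte and neutrophil medians were then 0.31, 0.44 and -0.33 for Sycn. They were 0.20, 0.38 and 0.06 for 2310079G19Rik, and 0.11, 0.16 and -0.30 for Slc37a2.

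The counts of other cell types are given beside those of the 3 genes, and their part was not tested. They are read against the 16.4% of all genes called higher and the 7.23% called lower in Model against Control mice. Without Control mice 17 and 50, 1881 of 15381 genes were called higher and 858 lower. A gene could pass the filter through 1 group alone, so the number tested in a list depends in part on the direction counted. Krt13 passed between Model + PZH and PZH mice with 0.106 to 0.355 FPKM in PZH and 1.42 to 12.4 in Model + PZH mice. Krt4 was at 0 in Control mice 37, 41 and 48, and without mice 17 and 50 it passed through Model mice alone. Goblet cell genes had 3 of 10 higher and 0 lower in Model than in Control mice, pan-epithelial genes 1 higher and 2 lower of 7, and intestinal transcription factors 0 higher and 5 lower of 13, Klf4 (-1.32) and Vdr (-1.29) among them. Small intestine genes had 2 of 6 lower. Neutrophil genes had 6 of 7 higher and lymphocyte genes 2 of 8 higher. Squamous genes had 0 of 6 called with all mice (limma, 0 at an unadjusted p under 0.05), and 4 of 4 higher without Control mice 17 and 50. Without these mice, lymphocyte genes had 0 of 8 called (limma, 1 higher at an unadjusted p under 0.05), goblet genes 2 higher and 1 lower, pan-epithelial genes 1 higher and 1 lower, transcription factors 6 lower and small intestine genes 1 higher and 3 lower. Between Model + PZH and PZH mice, where 1.74% of all genes were called higher, 2 of 5 neutrophil, 1 of 8 lymphocyte and 1 of 3 squamous genes were called higher, and 0 of 10 goblet, 0 of 8 pan-epithelial, 0 of 14 transcription factor and 0 of 6 small intestine genes were called (limma, with 0, 3, 3 and 3 at an unadjusted p under 0.05).

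The neighbouring genes gave no common pattern. Nccrp1, which lies 1386 bases beyond the end of Sycn, was at 7.35 ± 4.38 FPKM (SD, n = 5) in Control and 2.101 ± 0.63 (SD, n = 5) in Model mice and was lower there (log2 difference -1.30, limma adjusted p = 0.0150). Between Model + PZH and PZH mice its difference was -0.27 (limma adjusted p = 0.661). Krtap24-1 and Krtap26-1 beside 2310079G19Rik had means of at most 0.0502 FPKM in every group. Tmem218 and Ccdc15 beside Slc37a2 differed by -0.29 (limma adjusted p = 0.321) and 0.00 (limma adjusted p = 0.995) between Model + PZH and PZH mice. Ifnl3, on the other side of Sycn, was not analysed here.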

How the data were processed

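Colon RNA from 20 mice, 5 in each of 4 groups taken from the labels, had been sequenced with 1 library per mouse. The FPKM values deposited by the authors were computed per transcript with StringTie after read filtering with NGSQC and alignment to mm10 with HISAT2, and no counts were used here. Gene values were summed over the 96032 transcripts found in GENCODE M21 (GRCm38). The 22252 transcripts that had been assembled from the reads carry no gene name and were left out, as were 150 others, so a fragment given to an assembled transcript is missing from its gene. Epcam was listed at 0 in 13 mice and at 233 to 865 FPKM in 7. Whether an assembled transcript holds its fragments was not tested.

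log2(FPKM + 1) was compared between the 10 mice of each comparison with limma 3.58.1 in R 4.3.3, with an intensity trend and no covariates, for genes that reached 0.5 FPKM in 5 or more of these mice. A gene could pass this filter through 1 group alone. A call is a Benjamini-Hochberg adjusted p under 0.05 over all genes tested. For single values, exact two-sided permutation tests were used (scipy 1.17.1). Depth was estimated from the step of FPKM multiplied by length in genes with 1 transcript. The script was tested on simulated data. The 3 genes, the gene lists and the tests were chosen with earlier results of these data known. The genes named are the 3, those of the lists, the annotated neighbours, and the 5 genes of the highest r with each among genes with a mean of at least 1 FPKM. Alternatives were median-of-ratios scaling, no filter, a pseudocount of 0.1, all 20 mice in one model, single transcripts, a fold above 2 with an unadjusted p under 0.05, and leaving out each mouse. Leaving out Control mice 17 and 50 was chosen after seeing the data. The lists are short, and their 14 counts are descriptions.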

Additional observations from a re-analysis of the deposited data

Results flagged for a closer look

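Sycn in Model mouse 30 (422 FPKM) lay far from the other 4 Model mice, with a gap of 0.828 of the group's range against Dixon's 95% critical value of 0.710 for 5 mice. Of 16 group values tested in this way 1 was flagged, and chance would flag 0.8.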

How the results depend on the processing

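The Model + PZH against PZH difference of each of the 3 genes kept its direction under all alternatives run, and Slc37a2 kept its call under all of them but the single transcript Slc37a2-203 (-0.59, adjusted p = 0.290). Sycn passed with median-of-ratios scaling (-1.97, adjusted p = 0.0485) and with all 20 mice in one model (-1.91, adjusted p = 0.0135), and its adjusted p ranged up to 0.125 over all alternatives. 2310079G19Rik missed the threshold without the filter (-2.04, adjusted p = 0.0771) and as a single transcript (-2.04, adjusted p = 0.0845), where more features were tested. Leaving out each mouse gave -2.25 to -1.63 for Sycn, -2.24 to -1.79 for 2310079G19Rik, which kept its call in 3 of 10, and -3.11 to -2.59 for Slc37a2. The counts of all genes called lower and higher, 106 and 272, were 27 and 63 without the filter, 312 and 690 with all 20 mice, and 12 to 122 and 42 to 310 when a mouse was left out, the fewest without PZH mouse 27. With a fold above 2 and an unadjusted p under 0.05 they were 112 and 378. Of the list counts, 24 of 448 under the alternatives and 7 of 56 without Control mice 17 and 50 moved by over 1.5 times. Between Model + PZH and PZH mice, all 20 mice in one model gave 5 macrophage and 4 neutrophil genes higher and 2 colonocyte and 1 small intestine genes lower, with exocrine genes at 0 lower and 1 higher, and no filter gave 1 macrophage and 1 neutrophil gene higher and 0 exocrine, lymphocyte and squamous genes called. Between Model and Control mice, lymphocyte genes had 0 higher without the filter. No paired analysis was possible because the groups share no mouse numbers. With 5 mice a group and 10 to 65 estimated fragments for 2310079G19Rik in AOM/DSS mice, differences between Model and Model + PZH mice of the size seen could not be told from the spread between mice.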
